A study of Mus musculus with 30 samples.

Results

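Scleral gene expression was compared between the 6 arrays of 6-week-old mice and the 6 arrays of 3-week-old mice, 12 of the 30 arrays in the series. Each array held RNA from the ground sclera of 1 untreated Balb/cJ mouse, an inbred albino strain, and the study's methods state that the mice came from 1 family. The other 18 arrays, at 1, 2 and 8 weeks of age, took part in the fit that set the spread between arrays. Of the 35556 transcript clusters on the Mouse Gene 1.0 ST Array, 21789 carried exactly 1 gene symbol. Where a symbol had several transcript clusters, the brightest over all 30 arrays stood for it, which left 19938 genes. Values are log2 signals as deposited, and a change is the log2 fold change of week 6 over week 3, with its SE from limma. A gene was called when its relative fold change was 2 or more in either direction with an adjusted p (limma, Benjamini-Hochberg) of 0.05 or less. No gene was left out for low signal.

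The sclera is the tough outer coat of the eye. Its fibroblasts make layers of type I collagen fibrils, together with proteoglycans that set the spacing of fibrils, elastic fibres that let the coat stretch, and the enzymes that turn matrix over. Small vessels and nerves pass through it, the extraocular muscles insert on its outer surface, and it borders on the cornea, conjunctiva and choroid. RNA taken from the sclera can thus hold transcripts of each of these. Striated muscle contracts through arrays of thick myosin and thin actin filaments held in register by giant scaffold proteins, and is set off by calcium released from an internal store.

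Transcripts of the sex chromosomes differed without overlap between the weeks. Xist, the RNA that silences 1 X chromosome in female cells, had log2 signals of 1.70, 4.53 and 7.52 (lowest, median and highest) on the week 6 arrays, against 12.57, 12.68 and 12.94 on the week 3 arrays (log2 fold change -8.17, SE 1.2, adjusted p = 2.34e-06). The Y-linked genes Eif2s3y, Uty and Kdm5d lay between 5.44 and 10.38 on all week 6 arrays, and between 0.59 and 3.47 on all week 3 arrays, with log2 fold changes of 7.35, 5.95 and 3.34. Srsy, a repeated Y-linked gene with 19 transcript clusters, rose by 4.31. Neither the labels nor the methods name the sex of a mouse. Between these 12 arrays, age and whatever these transcripts mark cannot be told apart. Xist also differed within the ages of 1 and 2 weeks (4.71 to 11.34 and 6.96 to 12.70). All 30 arrays together thus allowed a fit with the difference between Xist and the 3 Y-linked genes as a covariate, called the sex index here. The slope of the index rests on differences between arrays of the same age. The index itself separated weeks 6 and 3 completely, so it is largely shared with the contrast. A call lost under the index can therefore reflect lower precision as well as a smaller change. The index need not mark sex alone. Within week 6, Xist ran from 1.70 to 7.52 while Eif2s3y was 5.9 to 10.38 on all 6 arrays. In week 8, Xist was 10.05 to 10.48 and Eif2s3y 2.41 to 2.77, between their levels in weeks 6 and 3. What these steps mark was not tested, so fits with the index are not an adjustment for sex alone. The fit with the sex index was added after the data had been seen. It called 1564 genes in place of 991, and 769 were shared.

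**Figure D1:**
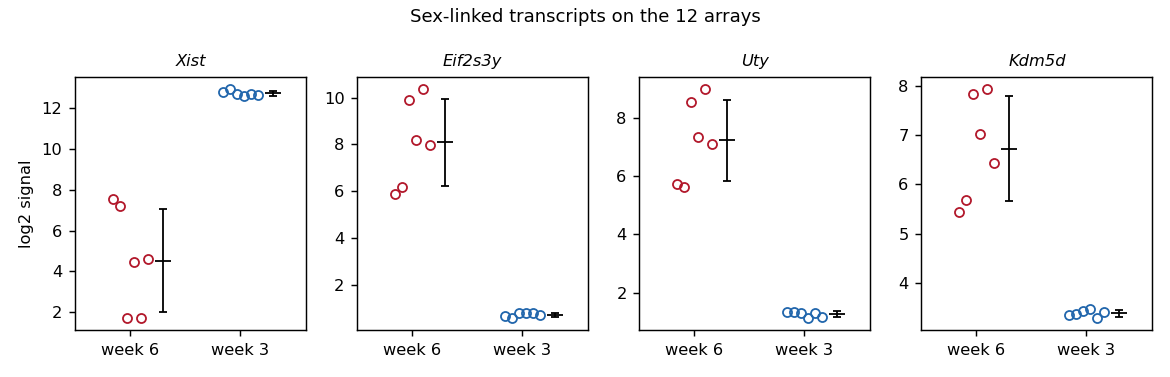
Log2 signal (vertical axis) of Xist and 3 Y-linked genes on the 6 week 6 and 6 week 3 arrays (horizontal axis). Open circles are single arrays and bars are the mean and SD. No value of 1 age lies within the range of the other.

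The arrays differed in 2 further ways. The interquartile range of the log2 signals was 2.26 to 2.64 on the week 6 arrays and 2.71 to 2.80 on the week 3 arrays, without overlap, while the medians were 6.18 to 6.37 and 6.15 to 6.20. Week 3 replicate 3 stood apart from its group in surface epithelium: its log2 signal of Krt12, a keratin of corneal epithelium, was 8.36, and that of the other 5 week 3 arrays was 12.65 to 13.31. No source used here gives scan dates. Of the 10 markers of scleral fibroblasts, 1 was called higher and 2 lower, beside 1.94% and 3.03% of all genes. Col1a1, the main chain of type I collagen, was one of them, not called, with log2 signals of 11.26 to 12.45 in week 6 and 12.22 to 13.08 in week 3.

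In all, 991 genes were called (4.97%), 387 higher in week 6 than in week 3 (1.94%) and 604 lower (3.03%). The count of calls in each list below is to be read beside these shares. The balance of rises and falls depended on the processing: 1071 were higher and 374 lower with the spread of each array as a covariate, and 266 and 835 after median centring. Quantile normalization, which makes the spread of all arrays equal, gave 392 higher and 451 lower. The array spread did not overlap between weeks 6 and 3. The slope of that covariate thus rests on differences between arrays of the same age. Over all 35556 transcript clusters, with those of no or several symbols, 1387 were called higher (3.9%) and 1309 lower (3.68%), 7.58% in all. With the adjusted p alone and no limit on the fold change, 56% of genes and 55.4% of transcript clusters passed. The median log2 fold change over the 19938 genes was 0.06. Fold changes of at least 4 were found for 49 genes that rose and 28 that fell, and of at least 8 for 20 and 2. The ranges of the 6 week 6 and the 6 week 3 arrays did not overlap for 35% of all genes, 18.1% with week 6 higher and 16.9% with week 6 lower, so that a lack of overlap was common. Over all transcript clusters it was 33.4%, 18.9% and 14.4%. The falls lay mostly among bright genes. With genes split into 5 equal groups by mean signal, 97 were called higher and 337 lower in the brightest group, whereas 44 were called higher and 2 lower in the dimmest. The median log2 fold change was -0.15 in the brightest group and 0.25 in the dimmest.

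**Figure D2:**
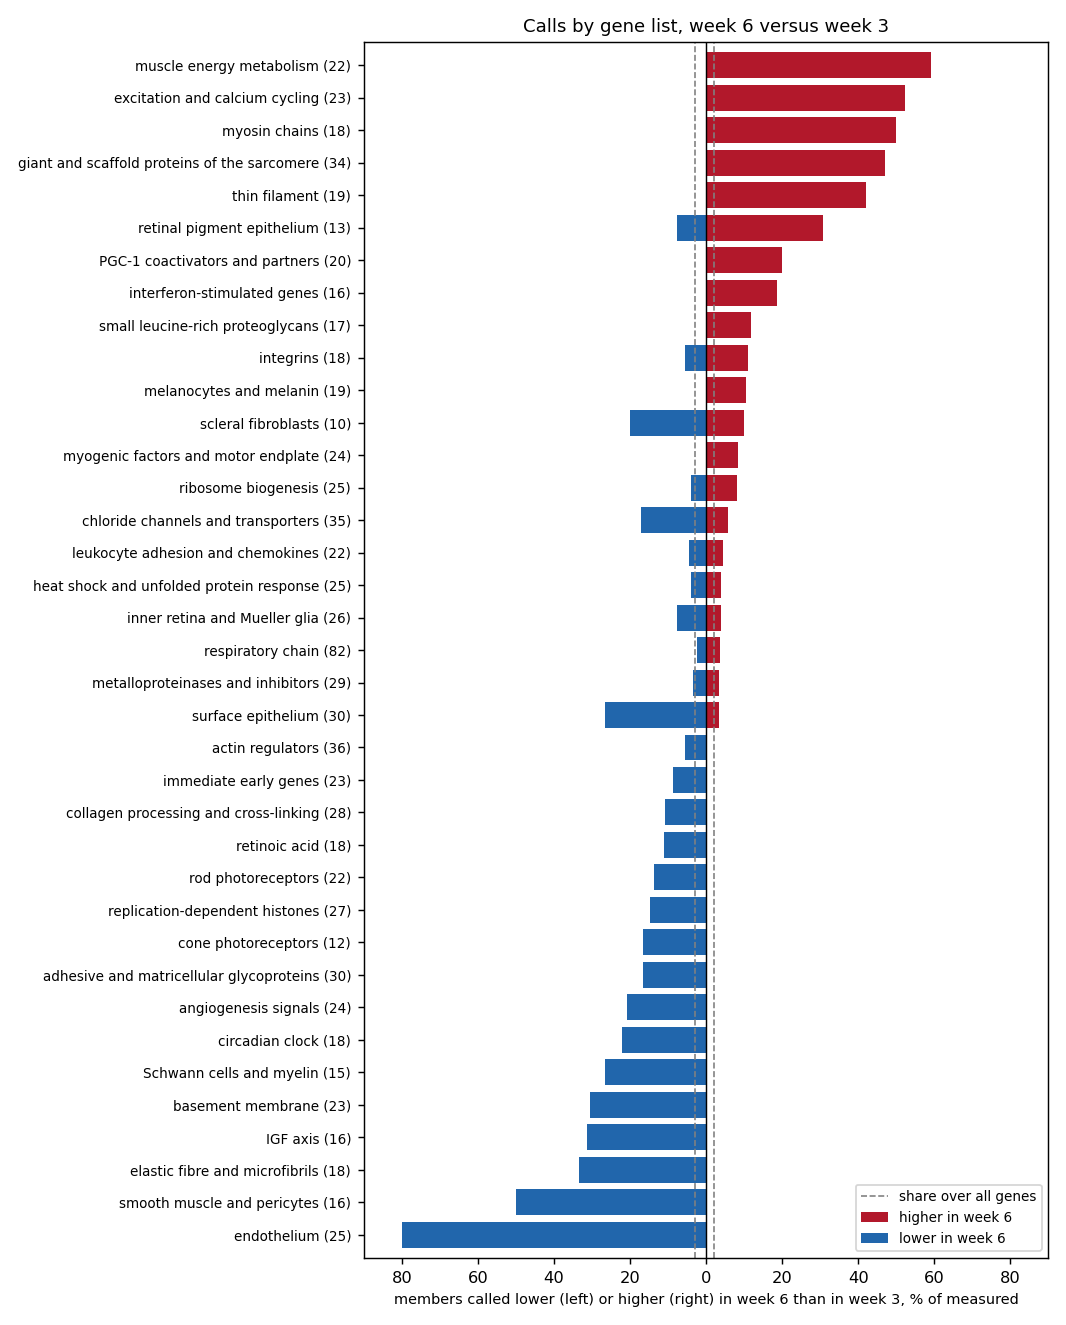
Share of the measured members of each gene list that was called higher (right) or lower (left) in week 6 than in week 3, for lists of 10 or more measured members with at least 2 calls, with the number measured in brackets. Dashed lines mark the shares over all genes, 1.94% higher and 3.03% lower. The 5 lists of striated muscle structure and energy lie furthest to the right and endothelium furthest to the left.

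Genes of striated muscle made up most of the largest rises. Of 18 myosin chains and their kinases measured, 9 were called higher and none lower, with a median log2 fold change of 1.21. Of 19 thin filament genes, 8 were called higher (median 0.65), of 34 giant and scaffold proteins 16 (0.85), of 23 genes of excitation and calcium cycling 12 (1.01), and of 22 genes of muscle energy metabolism 13 (1.36). No gene of these 5 lists was called lower. Over all genes 1.94% were called higher and 3.03% lower. The mean signal of the myosin list was 7.06 to 7.88 on the week 6 arrays and 5.08 to 6.61 on the week 3 arrays. It was 6.91 to 8.79 in week 1, 5.49 to 6.57 in week 2 and 6.94 to 7.87 in week 8, so that the low arrays were those of weeks 2 and 3. More muscle cells in the sample and more RNA per muscle cell cannot be told apart in RNA from whole tissue, and the same holds for every other cell type below.

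Ttn, titin, the giant spring that spans the sarcomere (transcript cluster 10483871, chromosome 2), had log2 signals of 10.38, 10.93 and 11.71 (lowest, median and highest) in week 6, against 5.25, 6.11 and 7.47 in week 3. The rise was 26.0-fold (4.70 on the log2 scale, SE 0.36, limma adjusted p = 2.8e-11, with 6 arrays in each week). All 6 week 6 arrays lay above all 6 week 3 arrays, by a gap larger than the range within either week. Ttn was also low in week 2 (6.65 to 7.57) and high in weeks 1 (9.81 to 12.37) and 8 (10.08 to 12.04). Smpx, a small stretch-responsive muscle protein, rose 19.1-fold, Mybpc1, which binds myosin in slow fibres, 14.3-fold, and Klhl41, a regulator of sarcomere assembly, 12.7-fold. Xirp2, Myot and Actn2, proteins of the attachment sites and Z disc, rose 7.05-fold, 7.63-fold and 5.92-fold.

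Myosin heavy chains give a fibre its speed, and each fibre type uses its own. Myh4, the chain of the fastest fibres, had log2 signals of 8.67, 10.62 and 11.68 in week 6, against 5.38, 6.19 and 7.69 in week 3, a 17.0-fold rise (SE 0.55 on the log2 scale, adjusted p = 5.18e-07). Myh3, the embryonic chain, which extraocular muscle keeps into adult life, had 8.23, 10.07 and 10.67 in week 6 and 2.39, 5.36 and 7.02 in week 3. It rose 30.8-fold (SE 0.78, adjusted p = 6.16e-06), and its week 3 arrays were spread over more than 4 log2 units. The ranges of neither gene overlapped between the weeks.

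Myh15, a chain found in extraocular muscle, rose 41.6-fold (SE 0.91, adjusted p = 1.42e-05), and Myh13, named for that muscle, 2.93-fold. The other fast chains Myh2 and Myh1 rose 13.1-fold and 9.30-fold, and the perinatal chain Myh8 5.21-fold. Myh7, the chain of slow fibres and heart, had a log2 fold change of 0.76 and Myl2, their regulatory light chain, one of 0.57, and neither was called. Among light chains and kinases of fast muscle, Myl1 rose 11.5-fold, Mylpf 5.23-fold and Mylk4 by 3.59 on the log2 scale.

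In the thin filament, nebulin (Neb), the ruler along actin, rose 18.2-fold, and the fast troponins Tnnc2, Tnnt3 and Tnni2, which pass the calcium signal to actin, rose 17.0-fold, 6.24-fold and 4.47-fold. Acta1, skeletal muscle actin, had log2 signals of 9.92 to 11.64 in week 6 and 8.13 to 9.53 in week 3, a 3.92-fold rise, and cardiac actin (Actc1) rose 4.54-fold with overlapping ranges. For calcium release and uptake, Trdn, triadin, rose 16.9-fold, Atp2a1, the calcium pump of fast fibres, 10.1-fold, and Casq1, the calcium store protein, 10.1-fold. Trdn is represented by 19 transcript clusters, whose log2 fold changes ran from -0.09 to 5.30. Srl and Pvalb, both calcium-binding proteins, rose by 2.17 and 2.00 on the log2 scale, and Cacna2d1, a calcium channel subunit, 3.92-fold. Atp2a2, the pump of slow muscle and of many other cells, stood at -0.49 on the log2 scale and was not called, although all its week 6 arrays were below all its week 3 arrays.

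**Figure D3:**
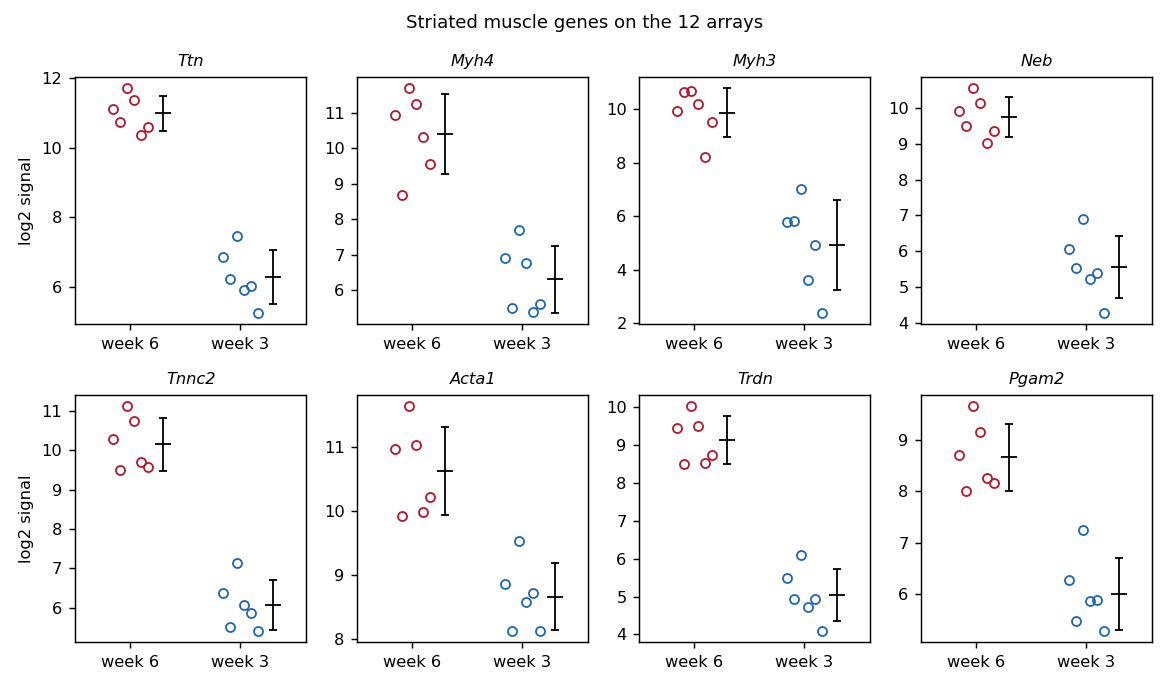
Log2 signal (vertical axis) of 8 genes of striated muscle on the 6 week 6 and 6 week 3 arrays (horizontal axis). Open circles are single arrays and bars are the mean and SD. For all 8 genes the lowest week 6 array is above the highest week 3 array.

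Promoter sequence is shown for a thick filament and a thin filament gene that rose, as examples of 2 known promoter motifs. The sequences are from RefSeq (GRCm38.p6) and run from 250 bases before to 50 bases after the annotated start. Myh4 lies on chr11:67237562-67237861 (plus strand) and Acta1 on chr8:123894726-123895025 (minus strand). Capitals mark TATAAA on either strand, a motif of promoters with a fixed start, and the CArG box, the motif of serum response factor. The 2 motifs can overlap, which they did not in these promoters.
Myh4: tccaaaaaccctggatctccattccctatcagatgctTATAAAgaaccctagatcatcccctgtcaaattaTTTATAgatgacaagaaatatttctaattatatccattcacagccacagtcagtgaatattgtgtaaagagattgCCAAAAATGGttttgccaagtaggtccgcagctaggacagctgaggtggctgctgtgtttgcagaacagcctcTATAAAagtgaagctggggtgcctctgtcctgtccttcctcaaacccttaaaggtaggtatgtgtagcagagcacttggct
Acta1: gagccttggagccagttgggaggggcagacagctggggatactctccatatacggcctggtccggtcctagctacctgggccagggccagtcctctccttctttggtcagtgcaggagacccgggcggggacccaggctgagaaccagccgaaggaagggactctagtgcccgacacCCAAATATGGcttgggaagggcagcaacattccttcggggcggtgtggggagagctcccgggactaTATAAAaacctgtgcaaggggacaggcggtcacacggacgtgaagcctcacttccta
In Myh4, TATAAA matched from -31 and from -213, and on the other strand from -179, and the CArG box from -104, with the annotated start as position 0. In Acta1, TATAAA matched from -7 and the CArG box from -73. Over the 15614 measured genes with a promoter in the table, 13.6% held TATAAA and 1.63% a CArG box. Of the 17 myosin list genes with a promoter, 8 held TATAAA and 4 a CArG box, and of 15 thin filament genes 3 held each. Of 24 scaffold genes 4 held TATAAA and 2 a CArG box, whereas none of 13 excitation and 17 energy genes held a CArG box. Of 307 genes called higher with a promoter, 61 held TATAAA and 10 a CArG box, and of 471 called lower, 50 and 10 did. A match describes the sequence only.

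The muscle energy list also held large rises. Pgam2, the muscle form of a glycolytic mutase, rose 6.34-fold, and Ckmt2 and Ckm, the mitochondrial and cytosolic creatine kinases that buffer ATP, rose 5.80-fold and 3.99-fold. Eno3, muscle enolase, rose 3.84-fold, and the muscle forms of cytochrome oxidase subunits, Cox8b and Cox7a1, 3.55-fold and 3.46-fold. Slc2a4, the insulin-regulated glucose transporter of muscle and fat, had a log2 fold change of -0.60 and was not called. Of 24 myogenic factors and motor endplate genes, 2 were called higher, Myf6 (3.90-fold), a factor of mature fibres, and Smyd1 (2.70-fold), which is needed for sarcomere assembly, and 22 were not called.

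With the sex index as a covariate, 9 myosin chains and 7 thin filament genes were still called, but the number fell to 8 of 34 for giant and scaffold proteins, 4 of 23 for excitation and calcium cycling, 6 of 22 for muscle energy metabolism and 0 of 24 for myogenic factors. In a test against a change of 1.5-fold, 9 of the scaffold and 7 of the excitation genes were called. Without week 3 replicate 3, the myosin list had 10 calls and the scaffold list 18.

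PGC-1 coactivators raise the number and activity of mitochondria by helping nuclear receptors and respiratory factors. Ppargc1a, which encodes PGC-1 alpha, had log2 signals of 6.74, 7.18 and 7.71 (lowest, median and highest) in week 6 and 6.05, 6.64 and 6.82 in week 3. Its fold change of 1.54 (log2 0.62, SE 0.18, limma adjusted p = 0.00468) was below the threshold, and its ranges overlapped. These values are of the brighter of its 2 transcript clusters, and Ppargc1a was not called from the mean of both. Of the 20 coactivators, partners and targets measured, 4 were called higher and none lower. Besides Ckmt2, these were Cycs, cytochrome c (2.70-fold, adjusted p = 4.26e-07), Me1, malic enzyme (2.29-fold), and Hexim1, an inhibitor of transcription elongation (1.14 on the log2 scale). Ndufs1, of complex I, had a log2 fold change of 0.99 without overlap and was not called, and it passed the threshold without week 3 replicate 3 (1.03) or without week 6 replicate 2 (1.00), replicate 4 (1.01) or replicate 5 (1.02). Of 82 respiratory chain genes, 3 were called higher and 2 lower, shares near those over all genes. The 3 were Cycs, Cox7a1 and Cox8b, and without week 3 replicate 3 there were 5. With the array spread as a covariate 6 were called higher and none lower. Under the sex index 1 was called higher and 3 lower, and Cox7a1 (1.19) and Cox8b (1.12 on the log2 scale) were not called. Atp5d, a subunit of ATP synthase, fell with a fold change of -2.29, and was not called with the array spread as a covariate (-0.80 on the log2 scale).

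Falls were most frequent in the list of endothelium. Endothelial cells line every vessel, and smooth muscle cells and pericytes wrap around them. Of 25 endothelial markers, 20 were called lower and none higher, against 3.03% of all genes, and the median log2 fold change of the list was -1.30. The 6 week 6 arrays were all below the 6 week 3 arrays for 15 of the 25, against 16.9% of all genes. The mean of the list was 6.89 to 8.10 in week 6 and 8.29 to 9.33 in week 3. The highest array of each week was replicate 3.

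Eng, endoglin, a co-receptor for TGF-beta on endothelium (transcript cluster 10471486, chromosome 2), had log2 signals of 7.34, 7.94 and 8.99 in week 6, against 9.73, 10.37 and 11 in week 3. Its fold change was -5.16 (log2 -2.37, SE 0.32, adjusted p = 4.55e-07), without overlap. Vwf, the clotting factor stored in endothelium, had 7.12, 7.64 and 8.63 in week 6 and 9.54, 9.93 and 10.86 in week 3, a fold change of -4.97. Gja4, which couples cells of arterial endothelium through gap junctions, had -5.10, Plvap, of the diaphragms of leaky vessels, -4.39, Tie1, a receptor kinase, -4.25, and Cldn5, of tight junctions, -4.02. Nos3, which makes nitric oxide, had -3.44 and Flt1, a VEGF receptor, -2.25.

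The 5 endothelial markers not called included Cdh5, the cadherin of endothelial junctions, at -0.90 on the log2 scale. Cdh5 was called without week 6 replicate 3 (-1.11) or week 3 replicate 4 (-1.01). Leaving out 1 array at a time gave 16 to 21 endothelial calls, with the fewest without week 6 replicate 2. The sex index also gave 20 calls, but not the same 20, since Cdh5 was called (-1.51). With the spread of each array as a covariate there were 17.

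Of 16 markers of smooth muscle and pericytes, 8 were called lower, against 3.03% of all genes, and none higher, with a median of -1.0. Acta2, smooth muscle actin, had log2 signals of 9.16, 9.72 and 10.70 in week 6, against 11.75, 11.89 and 12.53 in week 3 (fold change -4.60, SE 0.37 on the log2 scale, adjusted p = 1.38e-05). Notch3, the receptor that maintains vascular smooth muscle, had 8.33, 8.38 and 8.62 in week 6 and 9.86, 9.93 and 10.35 in week 3 (fold change -2.97, adjusted p = 1.42e-13). Neither gene's ranges overlapped. Tagln, an actin-binding protein of smooth muscle, had a fold change of -3.63, Pdgfrb, the receptor that recruits pericytes, -3.26, Mcam, an adhesion molecule of vessel walls, -3.12 and Myh11, smooth muscle myosin, -2.56. The calls among smooth muscle genes were thus opposite in direction to those among striated muscle genes.

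**Figure D4:**
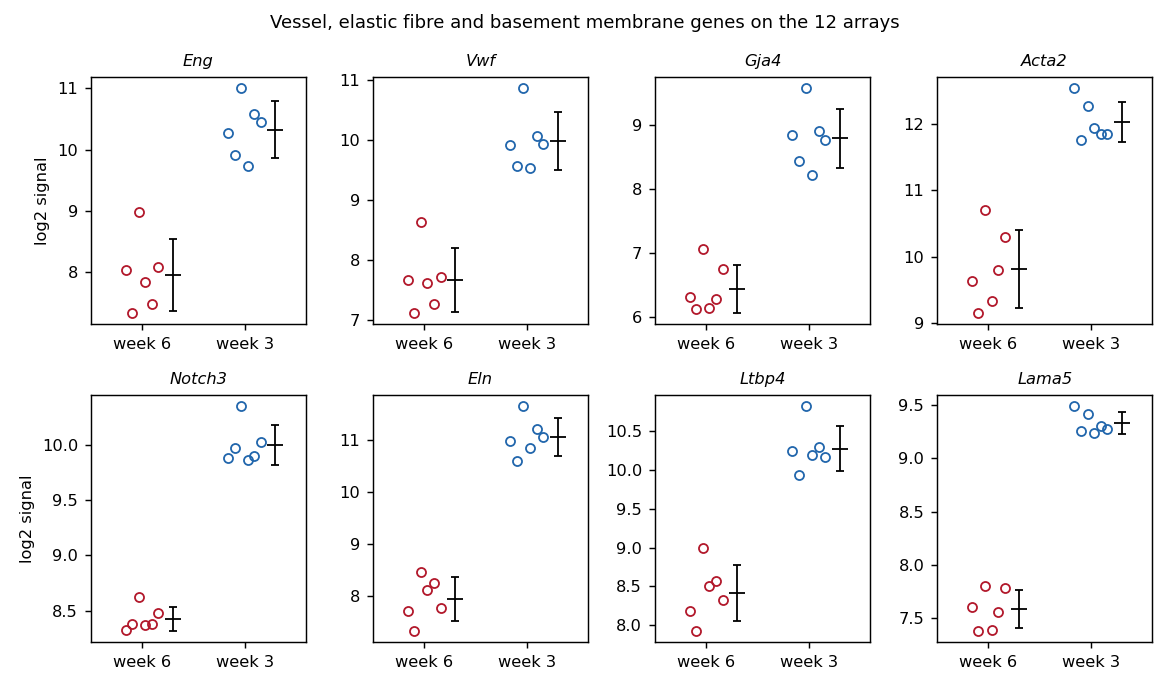
Log2 signal (vertical axis) of 5 vessel genes (Eng, Vwf, Gja4, Acta2, Notch3), 2 elastic fibre genes (Eln, Ltbp4) and the basement membrane gene Lama5 on the 6 week 6 and 6 week 3 arrays (horizontal axis). Open circles are single arrays and bars are the mean and SD. For all 8 genes the highest week 6 array is below the lowest week 3 array.

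Of 24 genes of angiogenic signalling, 5 were called lower and none higher, and 8 lower under the sex index. S1pr1, a receptor that stabilises new vessels, had a fold change of -4.06, Epas1, the hypoxia-inducible factor of endothelium, -3.05, Notch4, a Notch receptor of endothelium, -2.96, Pgf, placental growth factor, -2.52 and Ephb4, a marker of veins, -2.26. The log2 signal of Epas1 was 9.61 to 9.99 in week 6 and 11.21 to 11.72 in week 3. Among the 15 largest falls of all genes, outside the lists, were Ramp2 (-4.59), a partner of the adrenomedullin receptor of vessels, Crip2, a LIM protein of the vascular system (-4.68), Acer2 (-4.99), a ceramidase, Cytl1 (-5.99), a secreted cytokine-like protein, and Atp2a3 (-6.07), a calcium pump of blood and endothelial cells.

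A transcript cluster of a microRNA gene does not tell its primary transcript, precursor and mature form apart. Of 302 measured symbols that begin with Mir, 2 were called higher and 4 lower, both below the shares over all genes, 1.94% and 3.03%. Of the 2 called higher, Mir99ahg is a host transcript. Mir126a, which lies in an intron of the endothelial gene Egfl7, had log2 signals of 3.10, 3.55 and 4.44 in week 6 and 4.79, 5.66 and 6.18 in week 3 (fold change -3.66, adjusted p = 4.79e-07), without overlap. Egfl7 itself had a fold change of -2.70. Its mature product is shown because it is the endothelial microRNA of the set, with the seed (bases 2 to 8) in capitals, from RefSeq (GRCm38.p6, chr2:26591402-26591423, plus strand).
mmu-miR-126a-3p: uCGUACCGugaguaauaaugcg
Mir145a and Mir143, which are made together in smooth muscle, had fold changes of -5.41 and -2.57, also without overlap. Mir96, of sensory cells, had a fold change of -2.06, and was not called without week 6 replicate 1 (-0.98 on the log2 scale) or without week 3 replicate 2 (-0.98) or replicate 6 (-0.93). Mir103-2 was called higher at 2.06-fold, and not without week 6 replicate 6 (0.99).

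Among the matrix genes, those called lower lay mostly in elastic fibres, basement membranes and adhesive glycoproteins, while most genes of collagen fibrils did not pass the threshold. Of 18 elastic fibre and microfibril genes, 6 were called lower, against 3.03% of all genes, and none higher. The median log2 fold change of the list was -0.52. Eln, elastin, the rubber-like core of elastic fibres (transcript cluster 10534343, chromosome 5), had log2 signals of 7.34, 7.95 and 8.47 in week 6, against 10.59, 11.02 and 11.65 in week 3. Its fold change of -8.62 (log2 -3.11, SE 0.24, adjusted p = 3.59e-11) was the largest fall of a gene outside the X chromosome, and the ranges were more than 2 log2 units apart. Eln was 9.67 to 10.74 in week 1, 8.81 to 10.62 in week 2 and 8.39 to 9.01 in week 8, so that week 6 overlapped only week 8, and week 3 only weeks 1 and 2. Ltbp4, which guides elastin assembly and binds latent TGF-beta, had a fold change of -3.62. Fbln2 and Fbln5, fibulins that link elastin to microfibrils and cells, had fold changes of -2.65 and -2.42, and Mfap2, a microfibril protein, -2.50.

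Basement membranes are the laminin and type IV collagen sheets under endothelium and epithelium and around muscle and nerve. Of 23 such genes, 7 were called lower, against 3.03% of all genes, and none higher (median -0.66). Lama5, the laminin chain of mature vessels and epithelia, had log2 signals of 7.38, 7.58 and 7.80 in week 6 and 9.24, 9.29 and 9.49 in week 3 (fold change -3.36, SE 0.098 on the log2 scale, adjusted p = 8.24e-14). Agrn, agrin, and Hspg2, perlecan, the heparan sulfate proteoglycans of these sheets, had fold changes of -3.28 and -3.24, and Lamc3 -2.61. Col4a1 and Col4a2, the ubiquitous type IV chains, had -2.12 and -2.15. With the array spread as a covariate or after quantile normalization 4 of the 23 were called. Without week 3 replicate 3 there were also 4, and Col4a1 (-0.95 on the log2 scale) and Col4a2 (-0.98) were not. Col4a1 was also not called without week 6 replicate 2 (-0.99).

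Of 11 fibrillar collagens, 1 was called lower and none higher, with a median of -0.42, and of 24 other collagens none was called in either direction. Col1a1 and Col1a2, the chains of type I collagen, had log2 fold changes of -0.83 (SE 0.19, adjusted p = 0.000447) and -0.85 (SE 0.23, adjusted p = 0.00232), under the threshold of 2-fold. Col3a1, of the thin type III fibrils, had -1.04 (SE 0.26, adjusted p = 0.00124) and was called. It was not called without week 6 replicate 2 (-0.81), week 3 replicate 3 (-0.93) or week 3 replicate 5 (-0.98). Nor was it called with the array spread as a covariate (-0.48, adjusted p = 0.272), after quantile normalization (-0.93) or with array quality weights (-0.96), and in none of these 3 fits was any other fibrillar collagen called. Of 28 genes of collagen processing and cross-linking, 3 were called lower, among them Tgm2, transglutaminase 2 (fold change -2.26), and Plod1, a lysyl hydroxylase (-2.19), and 5 were without week 6 replicate 3 or without week 3 replicate 2. The settings moved these counts both ways. Under the sex index 5 of the 11 fibrillar collagens and 9 of the 28 processing genes were called lower, and 0 and 1 both with the array spread as a covariate and in a test against a change of 1.5-fold.

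The small leucine-rich proteoglycans, which bind collagen and set fibril width, were the matrix list with the highest median, 0.32, and 2 of 17 were called higher. Kera, keratocan, a proteoglycan of cornea and sclera, had log2 signals of 8.27, 8.71 and 8.89 in week 6, against 6.39, 7.09 and 8.25 in week 3. It rose 2.82-fold (SE 0.31 on the log2 scale, adjusted p = 0.000177), and its lowest week 6 array was just above its highest week 3 array. Under the sex index Kera stood at 1.17 and was not called, and 2 other members of the list were called lower. With the array spread as a covariate 5 members were called higher.

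Of 30 adhesive and matricellular glycoproteins, 5 were called lower and none higher, beside 3.03% and 1.94% of all genes. The list as a whole hardly moved, with a median log2 fold change of -0.08 and 13 of the 30 above 0. In a test against a change of 1.5-fold and after quantile normalization, 3 were called lower. With the array spread as a covariate 3 were called lower and 2 higher. Mgp, matrix Gla protein, the inhibitor of calcification of vessel wall and cartilage, had a fold change of -4.02, Vtn, vitronectin, -4.0, and Ccn2, connective tissue growth factor, -3.08. Fn1, fibronectin, had -2.06, and was not called without week 6 replicate 2 (-0.96 on the log2 scale) or week 3 replicate 3 (-0.94). Without either of these 2 arrays, 3 of the 30 were called. Timp3, the metalloproteinase inhibitor held in the matrix, had log2 signals of 9.31 to 10.50 in week 6 and 11.40 to 12.21 in week 3, a fold change of -4.0, whereas of the other 28 metalloproteinases and inhibitors 1 was called, in the other direction. Among 18 integrins, 2 were called higher, among them Itgb8, which activates TGF-beta (3.44-fold), and Itga5, the fibronectin receptor chain, was called lower (-2.65). Under the sex index 1 integrin was called higher and 3 lower, and 4 metalloproteinases and inhibitors were called lower.

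Among growth signals, the insulin-like growth factor axis held most of the falls. Binding proteins of this family hold IGF in the matrix and release it to its receptor. Of 16 genes, 5 were called lower, against 3.03% of all genes, and none higher, with a median of -0.68. Igfbp4 had log2 signals of 8.27, 8.93 and 9.93 in week 6 and 10.24, 10.87 and 11.72 in week 3 (fold change -3.80, adjusted p = 1.66e-06), without overlap. Igfbp3 had a fold change of -2.97, Igfbp7, which is also abundant in vessels, -2.54, and Igf2, the fetal growth factor, -2.27. The receptor Igf1r stood at -0.80 on the log2 scale, without overlap, and was not called. Of 29 TGF-beta and BMP genes, 1 was called lower, Bmp6 (-2.17). Of 24 FGF and EGF genes the only one called was Fgfr3 (-2.37), and of 29 Wnt ligands and inhibitors it was Sfrp4, a secreted Wnt antagonist, which rose 2.79-fold. With the sex index 8 genes of the insulin-like growth factor axis were called lower, and with the array spread as a covariate 3, and 2 in a test against a change of 1.5-fold. Igf2 was not called with the array spread (-0.81, adjusted p = 0.0688). Sfrp4 (0.84) was not called under the sex index.

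The clock genes called lower all belonged to the arm that represses the circadian clock. In the clock, Clock and Arntl drive Per and Cry genes through E-boxes, and the Per and Cry proteins then shut them off. Of 18 clock genes, 4 were called lower and none higher, with a median of -0.78. Per1 (transcript cluster 10377439, chromosome 11) had log2 signals of 6.56, 6.84 and 7.20 in week 6, against 9.30, 9.68 and 10.03 in week 3. Its fold change was -6.93 (log2 -2.79, SE 0.16, adjusted p = 8.24e-14), without overlap. Ciart, a repressor of Clock and Arntl, had a fold change of -3.31, Per2 -2.51 and Cry2 -2.06. Dbp, a target of the clock, and Nr1d1, which represses Arntl, had -0.98 and -0.84 on the log2 scale, without overlap, and Clock and Arntl had 0.67 and 0.73. None of these 4 was called in the fit reported here. With the array spread as a covariate, Clock (1.09) and Arntl (1.05) were called higher, as was Arntl (1.23) under the sex index. Cry2 was not called with the array spread (-0.93 on the log2 scale) or after quantile normalization (-0.94). Dbp was called lower after median centring (-1.06). It was also called without week 6 replicate 1 (-1.01), replicate 3 (-1.06) or replicate 6 (-1.01), or without week 3 replicate 5 (-1.01). No source used here gives the hour at which tissue was taken.

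The promoters of Per1 (the first of its 2 in the table, chr11:69098699-69098998, plus strand) and Ciart (chr3:95882179-95882478, minus strand) are shown because both genes fell and hold the E-box CACGTG, in capitals, which reads the same on both strands. They run from 250 bases before to 50 bases after the annotated start, from RefSeq (GRCm38.p6).
Per1: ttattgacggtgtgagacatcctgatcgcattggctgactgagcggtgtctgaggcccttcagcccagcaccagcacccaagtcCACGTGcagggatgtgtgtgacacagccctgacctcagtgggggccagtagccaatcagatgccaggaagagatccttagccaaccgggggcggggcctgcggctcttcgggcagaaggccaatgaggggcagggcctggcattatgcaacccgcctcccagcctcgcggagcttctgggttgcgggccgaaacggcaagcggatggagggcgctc
Ciart: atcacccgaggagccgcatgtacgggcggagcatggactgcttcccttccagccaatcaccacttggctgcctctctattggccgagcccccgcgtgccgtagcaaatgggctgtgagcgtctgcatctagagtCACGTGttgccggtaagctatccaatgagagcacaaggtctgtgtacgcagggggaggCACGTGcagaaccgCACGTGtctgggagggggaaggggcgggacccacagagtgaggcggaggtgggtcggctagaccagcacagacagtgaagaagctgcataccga
The motif matched once in Per1, from -166, and 3 times in Ciart, from -116, -58 and -44. It was found in 5 of the 16 clock genes with a promoter, and in 9.5% of the 15614 measured genes with one.

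Fkbp5, a co-chaperone that tempers the glucocorticoid receptor and is itself induced by it, had log2 signals of 6.69, 6.80 and 7.05 in week 6, against 9.28, 9.42 and 9.69 in week 3. Its fold change of -6.07 (log2 -2.60, SE 0.12) had the adjusted p of 9.54e-16. Zbtb16, a transcription factor that glucocorticoids also induce, had 7.07, 7.30 and 7.56 in week 6 and 9.33, 9.71 and 10.48 in week 3, a fold change of -5.57. Both were among the 15 largest falls. Tsc22d3 and Ddit4, which share that known induction, had fold changes of -3.74 and -3.82, and were chosen after their values were seen. None of the 4 overlapped between the weeks. Of 23 immediate early genes, which respond to stimuli within minutes, 2 were called lower, Dusp1 (-3.16), a phosphatase of MAP kinases, and Klf2 (-3.01), a flow-responsive factor of endothelium.

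For Per1, Fkbp5, Zbtb16 and the mean of the clock list, week 3 stood apart from every other age. Per1 had log2 signals of 7.11 to 7.61 in week 1, 6.65 to 7.71 in week 2 and 6.58 to 7.34 in week 8, all below its week 3 arrays. Fkbp5 had 6.38 to 6.85, 6.5 to 7.25 and 6.32 to 6.78 at those ages, and Zbtb16 6.71 to 7.51, 7.14 to 7.60 and 6.81 to 7.39. The mean of the clock list was 7.67 to 7.92 in week 6 and 8.28 to 8.42 in week 3, and it was 7.54 to 8.01, 7.27 to 7.58 and 7.49 to 7.67 in weeks 1, 2 and 8. Endothelium was less distinct. Its list mean in week 3, given above, overlapped weeks 1 (7.93 to 8.52) and 2 (7.33 to 8.4), and its mean in week 8 (6.41 to 8.15) overlapped week 6.

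**Figure D5:**
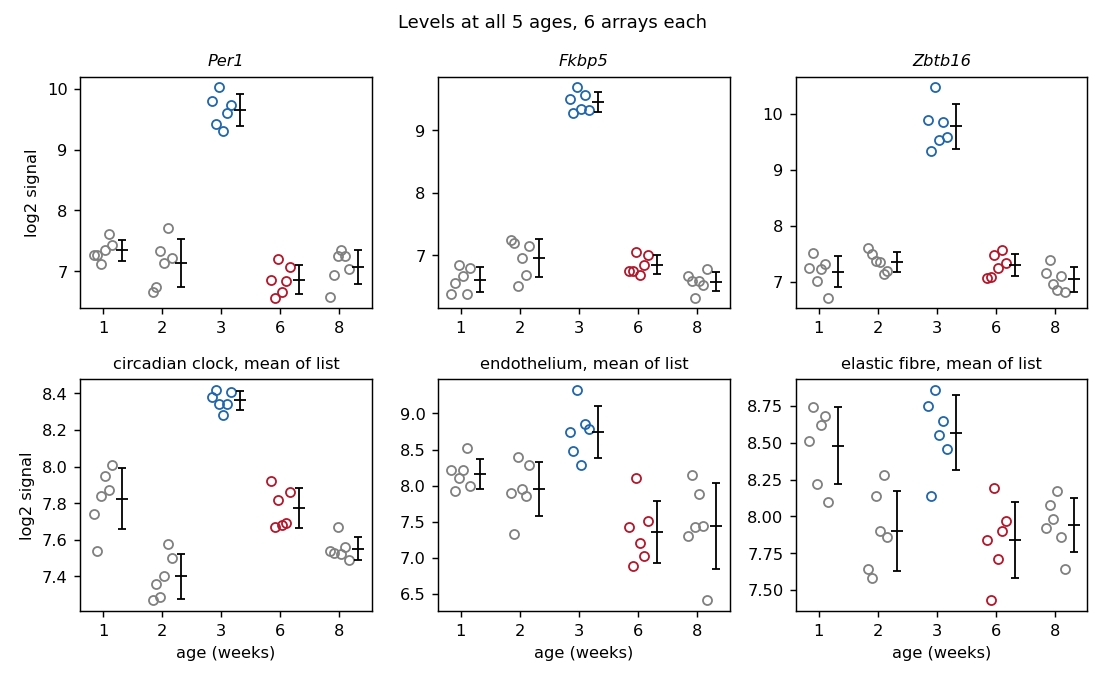
Log2 signal (vertical axis) of Per1, Fkbp5 and Zbtb16 and of the means of 3 gene lists on all 30 arrays by age in weeks (horizontal axis, not to scale). Open circles are single arrays, red for week 6 and blue for week 3, with the mean and SD as bars. For Per1, Fkbp5, Zbtb16 and the clock list every week 3 array is above every array of the other ages.

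Transcripts of neighbouring tissues moved in several directions. Of 30 keratins, desmosomal and other surface epithelium genes, 8 were called lower and 1 higher, beside 3.03% and 1.94% of all genes. Krt17, a keratin of activated and basal epithelium, had log2 signals of 6.82, 7.35 and 7.65 in week 6 and 8.30, 9.42 and 10.09 in week 3 (fold change -3.87, adjusted p = 5.45e-06). Krt16, a keratin of epithelium under stress, had -3.80. Krt4 and Krt13, a pair of mucosal epithelium, had -3.59 and -2.57, Krt19 of simple epithelium -2.83, and Jup, plakoglobin of cell junctions, -2.71. Krt12 did not move with them, at 0.90 on the log2 scale (SE 0.63, adjusted p = 0.231). The gene called higher was Dsc3, a desmosomal cadherin (2.37-fold), which was not called without week 3 replicate 3 (0.80 on the log2 scale). Without that array 10 genes of the list were called lower, and with the array spread as a covariate 5.

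Of 13 genes of the retinal pigment epithelium, which recycles the visual pigment, 4 were called higher and 1 lower. Rlbp1, its retinal-binding protein, rose 3.30-fold, and Rpe65, its isomerase, 3.10-fold, while Mertk, the receptor for taking up shed outer segments, had a fold change of -2.61. Rpe65 was not called without week 6 replicate 1 (1.41) or week 3 replicate 1 (1.47), and 2 of the 13 were called higher without either. Slc26a7, an anion transporter, rose 2.21-fold. With the array spread as a covariate 9 of the 13 were called higher. Under the sex index 1 was called higher, and Rlbp1, Rpe65 and Slc26a7 were not. Of 22 rod genes 3 were called lower, among them Crx, the photoreceptor transcription factor (-2.68), and Guca1a, an activator of guanylate cyclase (-2.69), and of 12 cone genes 2, among them cone arrestin (Arr3, -2.32). Under the sex index no rod or cone gene was called lower, 1 rod and 2 cone genes were called higher, and Crx (-0.77), Guca1a (-0.78) and Arr3 (-0.35 on the log2 scale) were not called. With the array spread as a covariate 1 rod gene was called lower and 2 higher, no cone gene was called, and Crx (-1.06) and Arr3 (-0.97) were not. In a test against a change of 1.5-fold, no gene of rods, cones or pigment epithelium was called except Mertk. Of 19 melanocyte genes, 2 were called higher, with 0 under the sex index and 5 with the array spread as a covariate, and of 20 lens genes none was called.

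Of 15 genes of Schwann cells and myelin, 4 were called lower and none higher. Pmp22, a protein of peripheral myelin, had a fold change of -2.69, and Cnp, an enzyme of myelin-forming cells, -2.64. Gfap, the filament of glia, had log2 signals of 4.82 to 5.2 in week 6 and 5.34 to 8.33 in week 3 (fold change -3.91, SE 0.56 on the log2 scale, adjusted p = 0.00416), so that the fall rested on a wide week 3 group. In a test against a change of 1.5-fold 1 of the 15 was called, and under the sex index also 1. With that index Gfap stood at 0.24 and Cnp at -0.33 on the log2 scale. None of the 19 chondrocyte or 6 tendon markers was called, and 1 of 5 osteoblast markers was called lower.

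Among immune genes, calls were most frequent in the interferon-stimulated list. Of 29 markers of macrophages and leukocytes 1 was called, Ptprc, the pan-leukocyte phosphatase CD45, with log2 signals of 6.25 to 6.60 in week 6 and 4.90 to 5.14 in week 3 (2.55-fold, adjusted p = 3.09e-12). Of 21 complement genes 1 was called, C7 of the membrane attack complex (2.96-fold). Under the sex index C7 stood at 0.86 and was not called, and another complement gene was called lower. Of 16 interferon-stimulated genes 3 were called higher and none lower, with a median of 0.64. Ifit1, which binds foreign RNA, had log2 signals of 7.13, 7.93 and 8.69 in week 6, against 5.33, 5.74 and 6.84 in week 3 (4.24-fold, SE 0.31 on the log2 scale, adjusted p = 2.17e-06), and Usp18, which damps interferon signalling, rose 3.06-fold. In both genes week 3 replicate 2 was above the rest of its group. The mean of the list was 6.78 to 7.34 in week 6 and 6.17 to 6.83 in week 3, and 5.74 to 6.02, 5.88 to 6.58 and 6.34 to 7.21 in weeks 1, 2 and 8. Iigp1 rose 2.08-fold and was not called without week 6 replicate 3 (1.00).

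Of 44 cell cycle and replication genes 1 was called higher and none lower, and of 27 replication-dependent histone genes 4 were called lower and none higher. H4c4 had log2 signals of 7.91, 8.01 and 8.17 in week 6 and 9.38, 9.72 and 9.92 in week 3 (fold change -3.12, adjusted p = 4.61e-10), H4c6 had -3.42 and H4c14 -2.36. H2ac4 had -2.10, and was not called without week 3 replicate 2 (-0.92). With the array spread as a covariate 2 histone genes were called lower and 1 higher, and H2ac4 (-0.39, adjusted p = 0.254) and H4c14 (-0.99) were not called. In the same fit 9 cell cycle genes were called higher. Histone genes of 1 type are close copies, so signal may be shared between them.

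Of 35 chloride channels and transporters, 6 were called lower and 2 higher. With the array spread as a covariate the balance turned, with 2 lower and 6 higher, and quantile normalization gave 3 lower and 1 higher. Ano1, the calcium-gated chloride channel of smooth muscle and glands, had log2 signals of 6.00 to 7.12 in week 6 and 7.87 to 8.85 in week 3, a fold change of -3.34, and the potassium-chloride cotransporters Slc12a5 and Slc12a7 had -2.39 and -2.12. Slc12a5 was not called with the array spread (-1.04, adjusted p = 0.0737) or the sex index (-0.64) as a covariate, nor Slc12a7 after quantile normalization (-0.99). Of 36 actin regulators, 2 were called lower, Flna, filamin A, which crosslinks actin (-2.61), and Actn1, alpha-actinin (-2.13). The sex index gave 8 lower, and the array spread 1 lower and 6 higher. Of 9 common reference genes 1 was called, Rplp0, a ribosomal protein (-2.61), whose second transcript cluster had a log2 fold change of -0.53. Actb, cytoplasmic actin, had -0.47 on the log2 scale, without overlap. Of 25 ribosome biogenesis genes, 2 were called higher, among them Dkc1, dyskerin (2.63-fold), and 1 lower. Few genes were called in the lists not yet given. These were 2 lower of 18 genes of retinoic acid, 1 lower of 20 imprinted genes (Igf2), 1 higher of 16 genes of hyaluronan and large proteoglycans, 1 higher of 19 adipocyte genes, 1 higher and 2 lower of 26 genes of inner retina, 1 in each direction of 22 leukocyte adhesion and chemokine genes and of 25 genes of heat shock, and none of 16 erythroid, 9 class II and 9 lacrimal gland genes. The erythroid list held 25 genes, of which only the 16 measured could be assessed. Of the 20 measured genes that the study named for these ages, 5 were called higher and 4 lower, and in a test against a change of 1.5-fold 5 and 0. They were chosen on these arrays, so that this count is no independent evidence of direction.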

How the data were processed

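The authors deposited log2 signals for each transcript cluster of 30 arrays. Their methods describe RMA summarization and removal of batches by scan date, whereas GCRMA and Partek 6.5 stand in the submitters' processing notes. Scan dates were not used here. Which of these made the deposited log2 values, and whether batches had been removed from them, is not settled. Some arrays held intermediate signals of both Xist and Eif2s3y, such as 7.52 and 5.9 on week 6 replicate 1. The cause of these was not tested, so the folds of sex-linked transcripts are uncertain in size. Background correction sets the scale of dim transcripts, so folds of low signals are the least certain. A model with 1 mean per week was fitted to all 30 arrays with limma 3.58.1 (R 4.3.3), and week 6 was contrasted with week 3. P-values were adjusted by Benjamini-Hochberg over 35556 transcript clusters. Calls required both a 2-fold change and an adjusted p not above 0.05. Means, SDs and SEs are on the log2 scale, and a negative fold change is the inverse ratio. The number of arrays, 6 per week, limits the precision. The study's methods state 1 sclera per mouse, from mice of 1 family. P-values measure the spread between these mice only as it stands in the deposited values. If batches had been removed beforehand, that spread could be too small, and the fit made no allowance for it.

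Gene names came from the platform annotation. Of 35556 transcript clusters 21789 had 1 symbol, 1621 several and 12146 none, and 21698 matched RefSeq by gene identifier. No value was dropped or imputed. The members and lists were chosen with earlier results of these data known. Named genes were the 15 largest rises and falls without overlap, up to 6 called members in each direction and 3 uncalled bright members of each list, all members of short lists, and genes the study named. Promoters and the microRNA were taken from RefSeq (GRCm38.p6), where 15614 of the 19938 genes had a promoter. The fit was also tested on simulated data, with independent normal noise around 1 mean for each transcript cluster. It recovered 95 of 100 transcript clusters planted at a log2 change of 1.25 and 100 of 100 at 2.5, with 0 false calls. No batch, correlation between genes or difference in array spread was simulated, so false calls on the real arrays are not measured. Alternatives changed the test, the normalization, the genes tested and the arrays used.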

Additional observations from a re-analysis of the deposited data

Results flagged for a closer look

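An array was singled out where its gap to the nearest of the other 5 arrays of its week, as a share of the range, was above Dixon's 95% limit for 6 samples. Of 444 groups of 6 arrays examined, 17 met this limit (3.83%), and chance alone gives about 1 in 20. Week 3 replicate 3 accounted for 8 of the 17. In it, Krt12 was 8.36 (others 12.65 to 13.31), Krt13 11.02 (others 12.03 to 12.39) and the mean of the surface epithelium list 8.8 (others 10.14 to 10.77). Cytl1 was 10.13 (others 8.76 to 9.12), Epas1 11.72 (others 11.21 to 11.36) and Notch3 10.35 (others 9.86 to 10.03). The mean of the PGC-1 list was 6.93 (others 6.75 to 6.81) and that of heat shock genes 8.82 (others 8.94 to 9.0).

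Week 3 replicate 2 stood out in 4 groups. Ifit1 was 6.84 (others 5.33 to 5.79), Usp18 6.81 (others 5.74 to 6.13), Ppargc1a 6.05 (others 6.58 to 6.82) and Col1a1 12.22 (others 12.76 to 13.08). In week 3 replicate 1, Myh11 was 11.2 (others 9.93 to 10.36).

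Among the week 6 arrays, Dsc3 was 9.45 (others 10.51 to 11.1) and Tgm2 8.39 (others 8.98 to 9.32) in replicate 3, and Atp5d was 8.83 (others 9.19 to 9.36) and Tsc22d3 6.29 (others 6.64 to 6.84) in replicate 2.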

How the results depend on the processing

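Removing the limit on the fold change raised the count of transcript clusters called to 19698 (11647 higher, 8051 lower) and of genes to 11167 (6158 higher, 5009 lower). Transcript clusters above the median signal gave 1504 (551 higher), and those with 1 symbol 1138 (489 higher, 649 lower), since fewer were tested. With the spread of each array as a covariate, 2377 transcript clusters and 1071 genes were called higher and 374 genes lower, so that 74.1% of called genes were higher, against 39.1% as reported. Median centring, which moved the median log2 fold change of all genes to -0.03 from 0.06, called 1101 genes, 24.2% of them higher. The cause of these shifts was not tested. The sex index covariate called 1564 genes, 1044 of them lower, and turned the sign of Gfap (0.24), Xist (0.24) and Kdm5d (-0.44), of which Xist and Kdm5d are part of the index.

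The labels do not say that a replicate number marks a shared animal, litter or day, and the data did not settle it. Deviations of same-numbered arrays correlated at 0.01 to 0.454, and 3 of 6 week 6 arrays were closest to their own number. With the replicate block 992 genes were called, 991 of them shared. Ordinary contrasts gave 988 genes, a test against 1.5-fold 754, the 12 arrays alone 989, array quality weights 984, quantile normalization 843 and means over transcript clusters 982. Leaving out 1 array at a time gave 2527 to 2897 transcript clusters (1343 to 1500 higher, 1184 to 1409 lower) and 899 to 1139 genes (341 to 451 higher, 512 to 688 lower). In lists with 4 or fewer calls in a direction, it moved the count by at most 3, the most in cell cycle genes called higher (0 to 4). Of 4083 values of the 164 named genes under these alternatives, 3943 kept direction and side of the threshold, 104 lost the call, 33 gained it and 3 changed sign.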
